A study of Rattus norvegicus with 38 samples.

Results

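Differentially methylated regions (DMRs) whose methylation level was lower on postnatal day (P) 10 than on P2 in nearly every rat pup are described here. Of 3417 DMRs in the table, 507 (14.8%) had a lower percentage at P10 than at P2 of the same pup in at least 16 of 19 pups. The members were thus selected on the change with age itself, and their fall is a description that no test supports. Levels and changes compared below by experience and cohort are those the rule used. Shares of members set beside shares of all DMRs therefore carry that selection. DNA came from buccal swabs of Sprague Dawley rats, collected from each pup, at P2 and at P10, for 38 samples in all. Pups of several litters were mixed and assigned at random after the first swab. Controls were raised with standard bedding and nesting material, and LBN pups with limited bedding and nesting, a model of simulated poverty, from P2 until P9. There were 6 controls and 5 LBN pups in cohort 1, and 4 of each in cohort 2. The cohorts were run on other dates, and sex, dam and cage are not given with the samples, so pups of 1 dam cannot be set apart and p-values may be too small.

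DNA methylation is the addition of a methyl group to cytosine, in mammals mostly where the cytosine is followed by guanine (a CpG). It is copied when a cell divides, and it is lost either by enzymatic removal or when it is not copied. Methylation near a gene's start often goes with low expression of that gene, while within gene bodies and between genes the relation is less regular. Reduced representation bisulfite sequencing (RRBS) cuts DNA at CCGG with the enzyme MspI, so that CpG-rich fragments are read, and the level of a DMR is the percentage of its cytosines read as methylated. A buccal swab holds epithelial cells and white blood cells, whose methylation patterns differ. The makeup of the swabs was not measured, so a change in the share of a cell type and a change within cells cannot be told apart in any value below.

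Of the 507 members, 119 were in the study's lists of DMRs that weighed most on age or on experience, and 89 of these have a gene named there, the associated gene where the DMR is intergenic. Those lists were made on these same pups. Of the 89, 5 (5.62%) lay at a promoter, against 28 of all 458 DMRs with a gene (6.11%). Of the genes at those 5, 2, Calml3 and Parp16, matched a single promoter window. The 250 bases before the start of each are shown because they carry the promoter setting of 2 members, with every CpG in capitals (RefSeq, build GRCr8, 5′ to 3′).
Calml3: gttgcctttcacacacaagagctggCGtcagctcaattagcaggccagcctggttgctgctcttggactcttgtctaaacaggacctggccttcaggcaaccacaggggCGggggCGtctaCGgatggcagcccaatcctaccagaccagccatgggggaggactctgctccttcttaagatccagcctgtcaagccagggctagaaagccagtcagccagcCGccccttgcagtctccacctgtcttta
Parp16: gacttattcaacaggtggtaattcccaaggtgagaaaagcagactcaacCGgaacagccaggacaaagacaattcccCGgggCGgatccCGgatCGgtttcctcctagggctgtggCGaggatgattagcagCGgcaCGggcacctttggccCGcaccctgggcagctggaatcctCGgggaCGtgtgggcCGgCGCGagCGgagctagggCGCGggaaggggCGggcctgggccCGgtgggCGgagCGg
The Calml3 bases are the upstream part of the window chr17:71331276-71331575, on the plus strand, and held 5 CpG and 0 CCGG sites with a GC content of 58.4%. The Parp16 bases are the upstream part of chr8:74626535-74626834, on the plus strand, and held 21 CpG and 5 CCGG sites with a GC content of 65.6%. In the 250 bases before the start of 33469 promoters the median was 5 CpG (quartiles 2 and 15), 35.9% held at least 10 CpG and 46.2% held a CCGG. The DMRs are placed on rn6, another build, so their position within these windows was not determined.

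At the Calml3 DMR (chr17:70071395-70071396), named for a calmodulin-like protein of epithelia, the level went from 66.6% ± 19 to 45.9% ± 27.1 (SD, n = 19). In cohort 1 controls P10 levels ran from 34.2% through a median of 56.3% to 65.6%, and in cohort 1 LBN pups they were 67.7, 77.8, 78.2, 87.1 and 89.8%. Cohort 2 controls stood at 16.7, 19, 25 and 33.3% and cohort 2 LBN pups at 10.4, 10.5, 19.1 and 26.7%. The control and LBN pups of cohort 1 thus did not overlap, whereas those of cohort 2 did. The Parp16 DMR (chr8:70712183-70712195), named for an ADP-ribosyltransferase of the endoplasmic reticulum, went from 47.2% ± 8.86 to 34.9% ± 9.84 (SD, n = 19). The other promoter members were Tspo, a protein of the outer mitochondrial membrane (14.7 to 4.21%), Gpr39, a zinc-sensing receptor (46.2 to 33.7%), and Fam161b (33.1 to 26.8%).

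The numbers of members that were lower in 16, 17, 18 and 19 pups were 224, 153, 86 and 44. Just outside the rule, 246 DMRs were lower in 15 pups. The largest mean fall among DMRs lower in 16 pups was 88.7 to 62.1% at chr2:20090777-20090778, and among those lower in 15 pups it was 88.4 to 65.0% at chr1:221627200-221627201. In the opposite direction, 255 DMRs were higher at P10 in at least 16 pups. The 9633 pup values of the members included 1064 that were not lower at P10, with a median rise of 5.84 percentage points. The share of members that were lower averaged 86.8% ± 11.7 over the cohort 1 controls, 88.1% ± 2.72 over cohort 1 LBN, 96.8% ± 1.13 over cohort 2 controls and 85.4% ± 9.16 over cohort 2 LBN pups (SD).

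**Figure D1:**
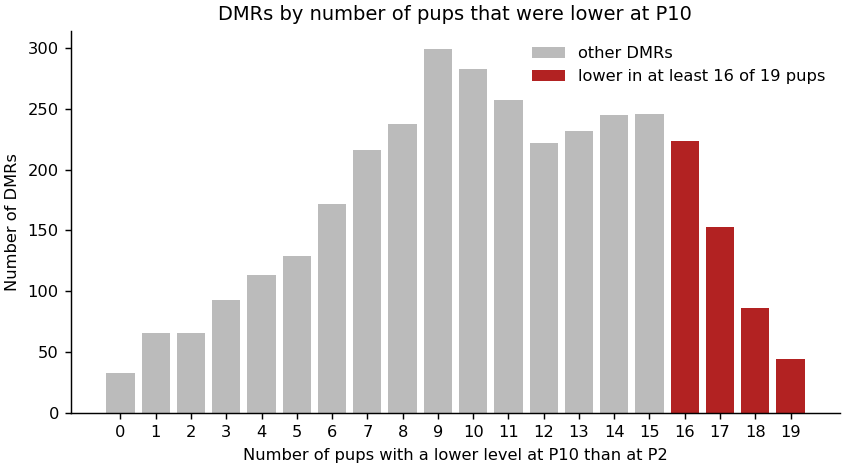
Bars give the number of DMRs (vertical axis) by the number of the 19 pups in which the level was lower at P10 (horizontal axis). The 507 members are the red bars at 16 to 19 pups, which fall from 224 to 44 DMRs.

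Most members were small. Single CpGs made up 348 of the 507 (68.6%) against 73.5% of all DMRs, and the other 159 spanned a median of 18 bp and at most 137 bp. Members were 13.9% of the single CpGs and 17.5% of the wider DMRs. By chromosome their share was highest on chromosome 12, with 49 of 189 DMRs (25.9%), and on the other autosomes it ran from 11.9% on chromosome 9 to 18.6% on chromosome 14. Among the 89 annotated members 41 (46.1%) were intronic, 27 (30.3%) intergenic and 13 (14.6%) exonic, and the corresponding shares of all annotated DMRs were 44.1, 24.7 and 20.3%.

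Members began at intermediate to high levels. Their mean P2 level had a median of 58.7% (12.5 to 94.9%, quartiles 44.4 and 71.9%), and all DMRs had a median of 51.0%. At P10 the median was 39.5% (4.21 to 89.4%). The mean fall spanned 1.53 to 39.6 percentage points, with quartiles of 12.5 and 19.8, and the median share of the P2 level that was lost was 30.0% (5.78 to 76.7%).

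The size of the fall varied with the starting level. In members below 25% at P2 the median change was -9.60 percentage points (39 members). It was -13.2 points between 25 and 45% (91 members), -16.9 between 45 and 60% (136), -18.7 between 60 and 75% (147) and -16.8 above 75% (94). As a share of the P2 level the loss declined from class to class, from 48.7% lost in the lowest class through 37.1, 33.1 and 27.2 to 21.2% in the highest. Across the 507 members Pearson's r of the P2 level with the change was -0.405, and across all DMRs it was -0.293. The P2 level enters both quantities and members are not independent, so these are descriptions.

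**Figure D2:**
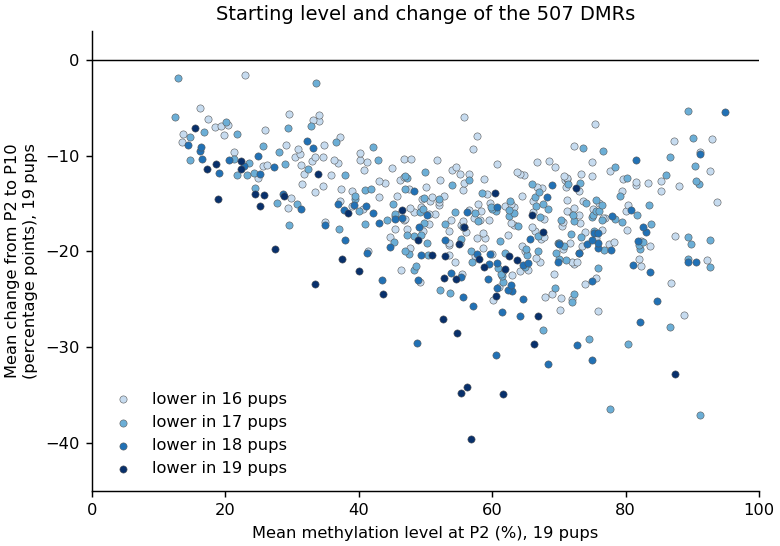
Each point is 1 of the 507 DMRs, with its mean level at P2 (%) on the horizontal axis and its mean change from P2 to P10 (percentage points) on the vertical axis, over 19 pups. Darker points were lower in more pups, and the change spans -39.6 to -1.53 points.

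The largest fall among members lower in all 19 pups was at the Prkab1 DMR (chr12:46314322-46314326, intergenic). Prkab1 encodes a regulatory subunit of the energy sensor AMP-activated protein kinase. Its level in cohort 1 controls ran from 34.5% through a median of 57.7% to 66.2% at P2, and from 14.6% through 21.3% to 31.9% at P10. Cohort 1 LBN pups were at 58.8, 60.5, 64.5, 65.7 and 66.7% at P2 and at 21.2, 22.3, 24.4, 25 and 29.2% at P10. In cohort 2 controls the levels were 41.9, 61.4, 64.6 and 67.5% at P2 and 5.56, 5.80, 10.0 and 11.2% at P10. Cohort 2 LBN pups had 32.9, 38.7, 57.5 and 68.3% at P2 and 6.52, 6.67, 10.3 and 11.9% at P10. The highest P10 level of Prkab1 thus lay below the lowest P2 level, and the P10 levels of the cohorts did not overlap.

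The next 5 largest falls among the 44 members lower in all 19 pups are given here, and others of the 44 fell less. For 1 of those others the mean change was -10.5 percentage points. At Pecr (chr9:79600940-79600941, transcription end), an enzyme of peroxisomal fatty acid chain elongation, the level went from a mean of 55.3% ± 10.8 to 20.5% ± 8.39 by P10 (SD, n = 19). At chr16:59906194-59906230 it was 61.6% ± 10.5 and 26.7% ± 14.2. The levels at chr12:13368480-13368481 were 56.2% ± 9.50 and 22.0% ± 7.71, and those at chr4:133389907-133389923 were 87.4% ± 5.72 and 54.6% ± 18.4. At chr9:81887241-81887287 they were 66.3% ± 7.14 and 36.6% ± 14.8. None of these 4 unnamed DMRs has a gene in the lists. The P10 spread between pups in these 5 ran from 7.71 percentage points at chr12:13368480-13368481 to 18.4 at chr4:133389907-133389923.

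Among members with a gene, large mean falls also occurred at DMRs that were not lower in every pup. Mical3 (chr4:153611188-153611189), an enzyme that oxidises actin, went from 91.2% ± 4.18 to 54.1% ± 23.3 and was lower in 17 pups. Llgl1 (chr10:46948753-46948759, exon), a cell polarity protein of epithelia, went from 77.7% ± 8.06 to 41.2% ± 28, also in 17 pups. Kcnk5 (chr15:4595203-4595204, exon), a potassium channel, went from 80.4% ± 9.09 to 50.6% ± 26.5. The P10 spread of these 3 was at least 23.3 percentage points, and their P2 spread was at most 9.09. These SDs pool the cohorts, and the P10 spread includes a difference between them. Mean P10 levels of Kcnk5 were 64.2 and 76.4% in cohort 1 controls and LBN pups, and 23.7 and 25.1% in those of cohort 2. In the same order they were 61.1, 78.7, 34.0 and 32.9% at Mical3 and 48.9, 76.2, 13.5 and 13.8% at Llgl1. Over the 507 members the SD between pups had a median of 9.79 percentage points at P2 and 10.9 at P10 and was larger at P10 in 269. Over all 3417 DMRs the medians were 10.6 and 11.8, and the SD was larger at P10 in 2208, so a wider P10 spread was not particular to members. Fam129b (48.7 to 19.1%), the membrane protease Tmprss9 (67.6 to 39.4%), the calcium-dependent lipid-binding protein Cpne5 (52.6 to 25.5%), the fatty acid receptor Ffar4 (61.5 to 35.1%) and Golga7b (70.2 to 44.0%) completed the 10 largest falls with a gene.

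**Figure D3:**
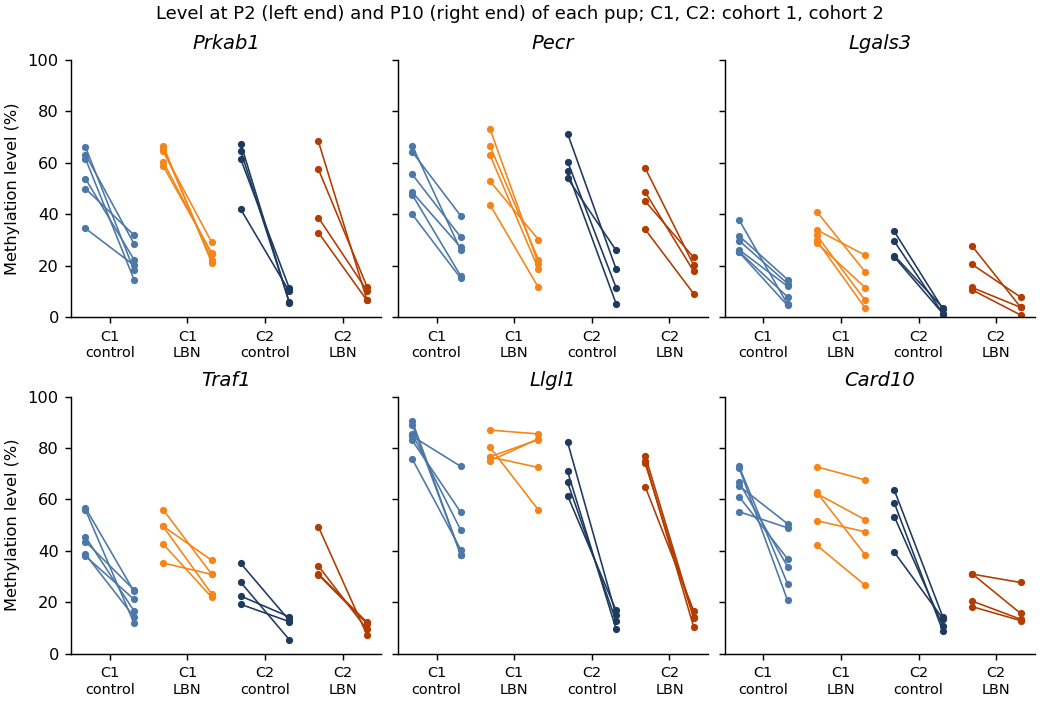
Each line joins the P2 level (left end) and P10 level (right end) of 1 pup (vertical axis, %) at 6 DMRs, by cohort and experience. Lines of Prkab1, Pecr, Lgals3, Traf1 and Card10 fall in all 19 pups, while those of Llgl1 fall in 17 and end lowest in cohort 2.

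Genes were also grouped by role, with lists chosen while earlier results of these data were known. The energy list holds Ampd3, Man1c1, B4galt4 and Mcart1, the growth factor list Fgfr3, Ltbp1 and Net1, and the NF-kB list Traf3. The study names these genes as less methylated at P10 in its controls, which are among these pups. The medians of the lists carry that choice and are no support for a fall by role. In energy and lipid metabolism, 3 of the 8 DMRs at list genes were members, Prkab1, Pecr and H6pd, the last a dehydrogenase of the endoplasmic reticulum that makes NADPH (19 to 7.18%). The median change over the 8 DMRs was -9.87 percentage points, and over the 458 DMRs with a gene it was -3.10, with 89 members (19.4%). In NF-kB and death receptor signalling 4 of 10 were members. These were Card10, a scaffold that activates NF-kB (52.7 to 29.9%), Traf1, an adaptor of tumour necrosis factor receptors (40.1 to 18%), the kinase Map3k8 (37.8 to 22.1%) and the receptor Tnfrsf1b (30.7 to 15.6%). The median of the 10 was -2.72, smaller than over all DMRs with a gene. In growth factor signalling 2 of 7 were members, the coreceptor Tgfbr3 (23.3 to 11.3%) and Net1 (64.5 to 45.1%), with a median of -8.79.

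Markers of the cells in the swab gave a partial view. Of 42 epithelial markers 5 DMRs were listed, at Lgals3, Dsc3, Epcam, Itga6 and Krt42, and only Lgals3, a sugar-binding galectin, was a member. Of 39 leukocyte markers 6 DMRs were listed and only Tnfrsf1b was a member. In each list 1 DMR, at Epcam and at Jak3, was instead among those higher at P10 in at least 16 pups, and 4 of the 5 and 4 of the 6 were lower on average. The median changes were -6.57 percentage points over the epithelial and -14.4 over the leukocyte DMRs. The study names Itga6 and Krt42 as less methylated at P10 in its controls, and Jak3 as more methylated. At Lgals3 (chr15:24154167-24154168, intron) the level was 27.5% ± 7.63 at P2, between 10.6 and 41.1%, and 7.71% ± 6.25 at P10, between 0.855 and 24.1% (SD, n = 19). Methylation at so few marker genes does not give the cell makeup, and its part in the falls was not tested.

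Members at the extremes of the P2 level fell by fewer percentage points than the median member. The member with the highest P2 level, at chr15:3236317-3236318, went from 94.9% ± 2.00 to 89.4% ± 4.49 (SD, n = 19), and the next, at chr1:78962801-78962856, from 93.7 to 78.9%. The lowest were Pdcd6ip, a protein of membrane sorting, from 12.5 to 6.49%, and chr14:46655640-46655650, from 12.9% ± 5.16 to 11% ± 5.50. That member on chromosome 14 also had 1 of the 3 smallest mean falls, with chr19:56338935-56338973 (23.0% ± 2.39 to 21.5% ± 2.03) and chr19:56338714-56338715 (33.5% ± 3.12 to 31.1% ± 2.49). Those falls were no larger than the SD between pups, so membership by direction did not require a large change.

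Few members had a close neighbour. The nearest other DMR lay within 1000 bp for 18 of 507 members (3.55%), against 203 of 3415 DMRs (5.94%) over the whole table. The neighbour was itself lower at P10 on average for 15 of the 18 (83.3%) with a median change of -13.7 percentage points, and for all DMRs with such a neighbour 38.9% and 2.63. Of the 18 neighbours, 4 were members and 0 belonged to the 255 DMRs that were higher in at least 16 pups. For those 255 DMRs, 34 (13.3%) had a neighbour within 1000 bp, and 1 of the 34 neighbours was lower. Within 10000 bp, 64 members (12.6%) had a neighbour, which was lower for 44 (68.8%) against 48.6% over all DMRs. These shares carry no test.

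The closest pairs of members were on chromosomes 12, 19 and 10. At chr12:43909017-43909018 and chr12:43909201-43909202, with a gap of 183 bp, the levels went from 48.9 to 25.8% and from 41.0 to 27.3%. The chromosome 19 pair, both among the 3 smallest falls, had a gap of 220 bp. At chr10:98731814-98731815 and chr10:98733995-98733996 the levels went from 50.2 to 31.2% and from 73.0 to 59.2%. Pair members were thus alike in the size of the fall on chromosome 19, while on chromosome 12 the falls were 23.0 and 13.6 percentage points.

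Averaged over the 507 members, all 19 pups were lower at P10, which the rule favours. In cohort 1 controls the mean level went from 58.5% ± 2.98 to 43.6% ± 2.54 (SD, n = 6), and in cohort 1 LBN pups from 57.6% ± 4.38 to 43.3% ± 3.50 (n = 5). In cohort 2 controls it went from 59.1% ± 1.23 to 34.9% ± 1.89 (n = 4), and in cohort 2 LBN pups from 51.2% ± 3.33 to 37.4% ± 4.92 (n = 4). Cohort 2 controls had the largest fall, at 24.2 points, with a range over pups of -25.7 to -21.3, which did not overlap the -16.1 to -11.4 of cohort 2 LBN pups. The 11 pups of cohort 1 ran from -21.9 to -7.49 points. The same means over the DMRs that were not members were 0.735, 3.70, -2.69 and -5.57 points in the 4 groups, in that order. Over the 255 DMRs higher at P10 in at least 16 pups, each pup's median change averaged 11.6, 12.9, 15.7 and 8.02 points. Their mean P2 level was 35.8% in cohort 2 controls and 40.8% in cohort 2 LBN pups. A smaller change in cohort 2 LBN pups than in cohort 2 controls was thus not particular to members. The number of members that were lower per pup ran from 339 to 498, with a median of 453. All pups of a group were lower at 208 members in cohort 1 controls, 285 in cohort 1 LBN, 450 in cohort 2 controls and 283 in cohort 2 LBN, groups of unequal size. Over all 3417 DMRs these counts were 267, 483, 1044 and 1131, so cohort 2 LBN pups came before cohort 2 controls there and after them among members.

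**Figure D4:**
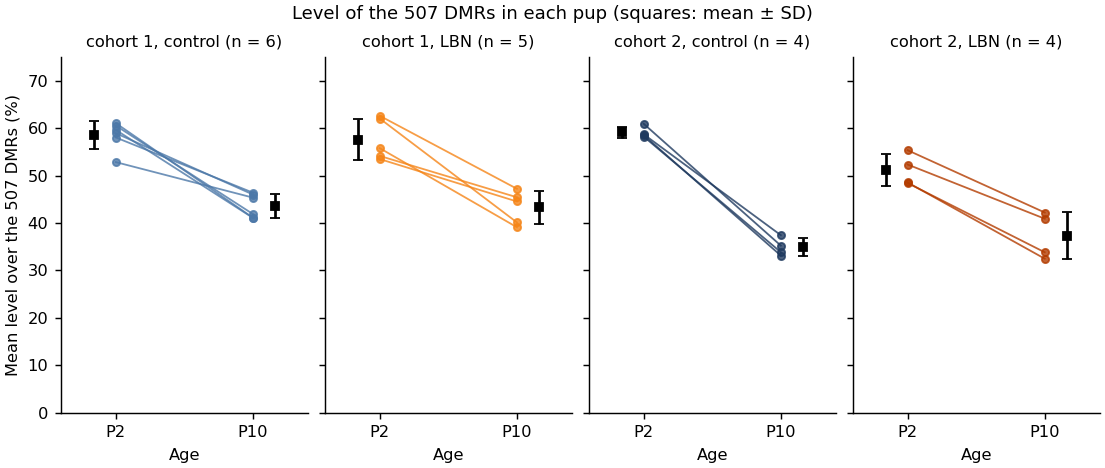
Each line joins the mean level of the 507 DMRs (vertical axis, %) of 1 pup at P2 and P10, in 4 panels by cohort and experience. Black squares with bars give the mean ± SD of each group, and cohort 2 controls end lowest, at 34.9%.

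The direction was then read across cohorts, choosing in one and counting in the other. Of 334 DMRs lower in at least 10 of the 11 pups of cohort 1, 182 (54.5%) were lower in at least 7 of the 8 pups of cohort 2, against 28.9% of all DMRs. Of 989 DMRs lower in at least 7 of 8 pups of cohort 2, 18.4% were lower in at least 10 of 11 pups of cohort 1, against 9.77% of all. Most of the DMRs chosen in cohort 2 thus did not meet the count in cohort 1. The DMRs themselves were called in the study because their level changed with age in some of these same pups, so the cohorts are not independent here.

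Whether the change differed between cohorts was tested with limma over all DMRs on δ methylation, the log2 of P10 over P2. This ratio was defined for 3354 DMRs and 500 members, since 7 members had a level of 0 in some sample. With experience as covariate, 63 of the 500 members (12.6%) passed an adjusted p of 0.05, and the background over all tested DMRs was 6.20%. In the direction of lower δ methylation in cohort 2, a larger relative fall, there were 62 members, with a background of 5.99%. At an unadjusted p of 0.05, 132 members (26.4%) passed, against 21.1%. The median log2 difference was -0.17 over members and -0.16 over all DMRs. Centred on the median of all DMRs 29 members passed, against 2.65%, and the members' median was 0.01. These values pool both experiences, which differed. In controls alone the median log2 difference was -0.39 over members and -0.13 over all DMRs, positive at 12% and 34.7%. In LBN pups alone it was 0.09 and -0.24, positive at 56% and 34.7%. The mean fall in percentage points was larger in cohort 2 for 327 of the 507 members (64.5%) and the change was lower in cohort 2 for 71.1% of all DMRs.

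At Llgl1 the cohort difference was the largest. P10 levels were 38.5% at the lowest, 44.3% at the median and 72.9% at the highest in cohort 1 controls, and 55.9, 72.5, 83.3, 83.6 and 85.5% in cohort 1 LBN pups. Cohort 2 controls were at 9.57, 12.7, 15 and 16.9%, and cohort 2 LBN pups at 10.3, 13.8, 14.4 and 16.7%. The cohorts did not overlap at P10. The log2 difference in δ methylation was -1.94 (SE 0.19, limma adjusted p = 1.40e-05). At chr8:126431995-126432028 it was -1.76 (SE 0.22, limma adjusted p = 0.000338), and the mean change there was -10.1 points ± 14.3 in cohort 1 and -48.5 ± 12.9 in cohort 2 (SD). At chr2:20090777-20090778 it was -1.09 (SE 0.15, limma adjusted p = 0.000714). Kcnk5, Prkab1, Mical3, Golga7b, Cpne5, Calml3 and Tmprss9 also passed, with log2 differences from -1.42 at Kcnk5 to -0.56 at Tmprss9.

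The 62 members with lower δ methylation in cohort 2 started high, at 72.0% ± 1.95 in cohort 1 and 65.9% ± 3.02 in cohort 2 (SD over pups). They went to 58.6% ± 8.03 and 30.3% ± 4.84. Of these, 12 had a gene and 25 (40.3%) were wider than 1 CpG. In controls alone 0 of the 63 members, and 0 of all 3354 DMRs, passed limma's adjusted p. At an unadjusted p of 0.05, 124 of the 500 members (24.8%) passed there, against 10.9% of all DMRs. The 63 were called in a fit that held these same pups, so their direction in controls or LBN pups alone is no separate support. In controls 62 of the 63 were lower in cohort 2, with a median log2 difference of -0.66. In LBN pups alone 79 members (15.8%) passed, 52 of them among the 63, against 25.1% of all DMRs, and the members' median log2 difference was 0.09. The cohorts also differed in date, so the cohort and anything run on those dates cannot be told apart.

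**Figure D5:**
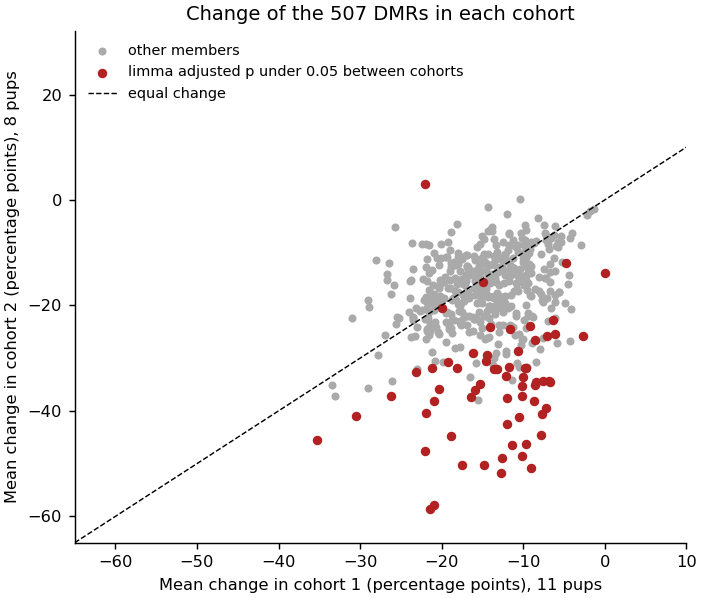
Each point is 1 of the 507 DMRs, with its mean change in percentage points in cohort 1 (horizontal axis, 11 pups) and in cohort 2 (vertical axis, 8 pups), and the dashed line marks equal change. Red points are the 63 members with a limma adjusted p under 0.05 between cohorts, 62 of which had lower δ methylation in cohort 2.

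Experience was compared in δ methylation next, with cohort as covariate. By limma 0 of 500 members passed an adjusted p of 0.05, as for all DMRs, with a background of 0%. At an unadjusted p of 0.05 there were 42 members (8.4%), 40 of them with a smaller fall in LBN, and the background was 3.25%. The median log2 difference of LBN from control was 0.13 over members, positive at 361 of 500 (72.2%), and -0.02 over all DMRs, positive at 45.6%. In cohort 2 alone 1 member passed, against a background of 0.358%, and 123 members (24.6%) passed unadjusted, 117 of them with a smaller fall in LBN, against 23.2%. In cohort 1 alone 0 members and 0 of all 3354 DMRs passed the adjusted p. Unadjusted, 35 members (7%) passed in cohort 1, 20 of them with a smaller fall in LBN, against 5.84%. There the difference was positive at 242 of 500 members (48.4%), against 58.6% of all DMRs, with a median of -0.010. The member that passed in cohort 2 was Sh2d5, an adaptor protein (chr5:156623833-156623834, exon), with a log2 difference of 1.65 in cohort 2 (SE 0.24, limma adjusted p = 0.0459). Sh2d5 changed by -55.5, -52.1, -40.6 and -28.9 points in the controls and by -14.0, -1.99, -1.27 and 0 points in the LBN pups of cohort 2, which did not overlap. Before assignment Sh2d5 was at 42.9, 66.1, 66.7 and 73.7% in those controls and at 20, 20.6, 45.1 and 50.5% in those LBN pups, a difference of -1.76 in log-odds (SE 0.52, limma adjusted p = 0.0428 in cohort 2 alone).

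Card10 had the smallest p over both cohorts. Its change was -51.7 points at the lowest, -28.5 at the median and -6.28 at the highest in cohort 1 controls, and -24.4, -15.6, -10.2, -5.11 and -4.37 in cohort 1 LBN pups. In cohort 2 it was -49.8, -49.4, -42.5 and -25.8 in controls and -15.4, -7.08, -5.43 and -3.26 in LBN pups. Groups overlapped in cohort 1 and did not in cohort 2. The log2 difference in δ methylation was 0.99 (SE 0.24) and the limma adjusted p was 0.999913. The next were chr8:7192555-7192556 at 0.63 (SE 0.17) and Tmprss9 at 0.55 (SE 0.16).

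The P2 level, taken before the pups were assigned, enters δ methylation, so it was compared alone, on log-odds of the percentage. It also enters the rule, so a contrast of members with all DMRs at P2 is not free of the selection. Over both cohorts, limma with cohort as covariate gave 0 of 507 members, with a background of 0%, and 85 members (16.8%) at an unadjusted p of 0.05, 81 of them lower in LBN, against 13.4%. The median difference of members was -0.30 and that of all DMRs was 0.06. In cohort 2 alone 101 members (19.9%) passed the adjusted p, against 14.0%, and 99 (19.5%) were lower in the pups later raised in LBN, against 9.69%. In cohort 1 alone 0 members and 0 of all 3417 DMRs passed, and 7 members (1.38%) passed unadjusted, against 1.73%. The count in cohort 2 rested on single pups. Leaving out 1 of the 8 pups gave between 0 and 112 members, with 0 without control 11, LBN 9 or LBN 11, 1 without control 5, 4 without LBN 4 and 27 without control 1. The counts over all DMRs in these fits are not given here, so the loss does not set members apart from the rest.

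At chr1:142932128-142932129 the P2 level of cohort 2 was 34.4, 53.6, 58.8 and 63.6% in controls and 18.9, 23.7, 24.3 and 29.0% in LBN pups, which did not overlap. The cohort 2 difference was -1.78 on the log-odds scale (limma adjusted p = 0.0241), and over both cohorts it was -1.26 (SE 0.34, limma adjusted p = 0.354). Card10 had P2 levels of 39.5, 53.3, 58.6 and 63.6% in cohort 2 controls and of 18.3, 20.5, 31.0 and 31.1% in cohort 2 LBN pups. At P10 these Card10 groups were at 8.79, 10.8, 13.6 and 14.3% and at 12.9, 13.4, 15.7 and 27.7%, and they overlapped. The smaller fall of Card10 in LBN pups of cohort 2 thus stood beside a lower level before the experience.

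At P10, over both cohorts, limma gave 0 of 507 members, with a background of 0%, and 50 members (9.86%) at an unadjusted p of 0.05, 40 of them higher in LBN, against the same background of 9.86%. That direction depended on the scaling. Centred on the median of all DMRs, 48 members passed unadjusted, against 11.9%, and 12 of them were higher in LBN. In cohort 1 alone 34 members (6.71%) passed the adjusted p, 17 higher and 17 lower in LBN, against a background of 12.0%. When centred, 66 passed, 7 higher and 59 lower, against 12.7%. In cohort 2 alone 0 members and 0 of all 3417 DMRs passed. The cohort 1 count also rested on single pups, with 0 to 98 members when 1 of the 11 was left out. It was 0 without control 3, 6 or 9 or LBN 2, 9 or 12, 9 without control 12, 20 without control 7 and 98 without control 4. For these fits, too, the counts over all DMRs are not given here. At Net1 the P10 level in cohort 1 controls was 21.7% at the lowest, 42.6% at the median and 56.5% at the highest, and LBN pups stood at 59.1, 71.4, 71.8, 74.6 and 79.0%, above all controls. In cohort 2 Net1 was at 17.7, 23.0, 32.3 and 39.8% in controls and 21.6, 29.5, 41.2 and 42.9% in LBN pups, which overlapped. Net1 differed by 1.79 in log-odds in cohort 1 (limma adjusted p = 0.0364) and by 1.20 over both (SE 0.33, limma adjusted p = 0.482). Tgfbr3 differed by 2.10 in cohort 1 (limma adjusted p = 0.0372) and by 1.56 over both (SE 0.45, limma adjusted p = 0.482).

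Whether the experience difference itself differed between cohorts was tested with an interaction term. By limma 0 of 500 members passed, with a background of 0.0298%, and 125 members (25%) passed an unadjusted p of 0.05, against 25.0%. Of the 125, 110 had a positive term, a higher LBN minus control difference in cohort 2 than in cohort 1. The term was positive at 347 of 500 members (69.4%), with a median of 0.42. Over all DMRs it was positive at 40.1%, with a median of -0.18. The smallest limma adjusted p among members was 0.0806, at Sh2d5 with a log2 difference of 1.61 (SE 0.36), at chr7:34119404-34119405 with -1.46 (SE 0.37) and at chr17:18176097-18176098 with 1.53 (SE 0.39). At chr7:34119404-34119405 the changes were -4.68, -4.23, 14.7, 22.9 and 30.2 points in cohort 1 LBN pups and -23.1, -22.6, -15.7 and -12.7 in cohort 2 LBN pups, which did not overlap. Without LBN 4 of cohort 1, 30 members passed the interaction, against 7.10% of all DMRs, and without control 12 of cohort 1, 3 did, against 1.46%.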

How the data were processed

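RRBS libraries of 38 buccal swabs, P2 and P10 of 19 pups, were used. Per the labels and methods, the authors trimmed reads with Trim Galore 0.4.3, aligned them to rn6 with Bismark 0.16.3, kept CpGs with more than 10 reads, compared P2 with P10 within each pup at a false discovery rate of 0.05, merged CpGs within 100 bp and kept regions shared in 2 pups. The deposited table holds the methylation level of each DMR as a percent. Reads behind each percent are not given, so depth is unknown and no interval is attached.

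Samples were paired by pup name. Members and gene lists were chosen with earlier results of these data known. δ methylation and log-odds, log2((percent + 1)/(100 - percent + 1)), were tested with limma 3.58.1 in R 4.3.3 across all DMRs (Benjamini-Hochberg), after a check on simulated data. The pup is the pairing block, entered by taking each pup's own P10 to P2 ratio, and replicate numbers pair no different pups. Named members were the 6 largest falls in all 19 pups, the 10 largest with a gene, the 3 smallest p of each comparison, the 3 smallest falls, the 2 highest and 2 lowest P2 levels, the 3 closest pairs, members at listed genes, and the largest falls at the threshold. The promoter members were chosen after their annotation was seen, and Sh2d5 in cohort 2 alone was named as a count of 1. Alternatives covered scale, filter, centring, cohort and each pup left out. The authors' own comparisons were not used.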

Additional observations from a re-analysis of the deposited data

Results flagged for a closer look

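Values of single pups that stood far from the rest of their group, or members that differed between cohorts, were as follows. Of 196 groups of pups that were looked at, 10 (5.10%) held such a pup, and chance flags about 1 in 20. One control of cohort 1 had a mean P2 level over the members of 52.8%, with the others between 58.0 and 61.1%. In cohort 2 controls, 1 pup changed by -28.1 percentage points at Pecr (the others by -52.7 to -49.1), 1 by -26.0 at chr12:13368480-13368481 (-50.8 to -47.9), 1 by -54.9 at chr17:18176097-18176098 (-39.8 to -38.9) and 1 by 13.4 at Fam161b (-3.43 to -1.15). In cohort 2 LBN pups, 1 changed by -14.0 at Sh2d5 (-1.99 to 0), 1 by -23.8 at Map3k8 (-7.83 to -4.60) and 1 by -52.7 at chr1:78962801-78962856 (-23.9 to -20.8). In cohort 1 controls, 1 changed by -32.8 at Lgals3 (-20.7 to -14.2) and 1 by -6.86 at chr14:46655640-46655650 (-2.27 to -0.325).

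Between cohorts, 63 members (12.6%) differed in δ methylation past limma's adjusted p of 0.05, against 6.20% of all DMRs. The log2 differences of the 3 members with the smallest p were -1.94 at Llgl1, -1.76 at chr8:126431995-126432028 and -1.09 at chr2:20090777-20090778. No cause was tested.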

How the results depend on the processing

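The number of members was 283 with at least 17 pups, 44 with all 19, 164 with falls of more than 5 points, 320 after each pup's median change was subtracted, 334 by cohort 1 alone and 989 by cohort 2 alone, and 520 to 656 when 1 pup was left out and at least 15 of 18 were required. In δ methylation by experience, the count of members was 0 under every alternative and with any 1 pup left out, except 1 in cohort 2 alone. In that fit 12 of all 3354 DMRs passed. Between cohorts the count of 63, with 208 of all 3354 DMRs, became 36 in percentage points, with 118 of 3417. In log-odds it was 22, with 82 of 3417, and when centred 29, with 89 of 3354. The whole table thus dropped too. In controls alone it was 0, where 0 of all 3354 DMRs passed too. The 63 became 42 to 79 with 1 pup left out, and the counts over all DMRs in those fits are not given here. The interaction count of 0 became 1 in percentage points, with 5 of all 3417 DMRs, and 0 to 30 with 1 pup left out. With no replicate block, that is with the levels of all 38 samples fitted as unpaired and an age-by-factor term, the counts were 0 for experience, 86 for cohort and 1 for the interaction. Over all 3354 DMRs those counts were 0, 399 and 19. The experience count was 0 at P2 and at P10 with any 1 pup left out, but 101 at P2 in cohort 2 alone and 34 at P10 in cohort 1 alone. The former became 64 on log2(percent + 1), with 402 of all 3417 DMRs, and, with 1 pup left out, 0, 1, 4, 27 and up to 112. The latter became 3 on that scale, with 15 of all 3417, and 66 when centred, with 435 of all 3417. With 1 pup left out the latter was 0, 9, 20 and up to 98. The controls-alone fit and the alternatives within a cohort were chosen after seeing the data. The causes were not tested. None of 15 single DMR results reversed in direction, and other called members were not followed in every setting. When centred, the members' median difference by experience at P10 turned from 0.055 to -0.15, and that between cohorts went from -0.17 to 0.01. In LBN pups alone the cohort median was 0.09, and in controls alone it was -0.39. Of 405 settings of 15 single DMR results, 392 kept their side of the threshold, 10 came to pass it and 3 ceased to. Depth per DMR is unknown.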
